A study of Mus musculus with 48 samples.

Results

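The genes described here are 10 chaperones and other proteins of the endoplasmic reticulum (ER), all widely used as readouts of the unfolded protein response. They are Hspa5, Hsp90b1, Hyou1, Dnajb9, Sdf2l1, Pdia4, Creld2, Manf, Herpud1 and Xbp1. They were chosen by symbol, with earlier results of these data known, and each was found as 1 of the 47561 genes of the expression table, of which 27106 were above 0 in at least 1 mouse. All 10 passed the filter on low values in every comparison.

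Whole lung RNA of 48 mice was sequenced, with 3 mice in each of 16 groups defined by strain, sex, injection and air. Mice of the C3H/hen and C57Bl/6 strains, males and females (C3HM, C3HF, C57BM, C57BF), received an injection labelled SAL, for saline, or ATG, for aurothioglucose at 25 mg/kg, and then breathed room air (RA) or hyperoxia (HYP), more than 95% oxygen, for 96 hours. Aurothioglucose is a gold compound that inhibits thioredoxin reductase, and none of the mice carried an engineered allele. The mice were 6 to 8 weeks old, and each library came from 1 mouse. The series description gives the gold compound to all mice, so the saline groups rest on the sample labels, and it names the strains C57B6/J and C3H/HeN.

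The ER folds proteins that enter the secretory pathway, with chaperones, disulfide isomerases and a system that sends misfolded proteins to degradation. When unfolded proteins build up, the sensors IRE1 (Ern1), PERK (Eif2ak3) and ATF6 raise the supply of chaperones, slow translation and increase degradation through the transcription factors XBP1, ATF4 and ATF6 itself. In the lung, alveolar type 2 cells, club cells and plasma cells secrete large amounts of protein and hold much ER.

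Levels are given in FPKM, a count of fragments divided by transcript length and by the size of the library, which can be compared between genes. Differences are on the scale of log2(FPKM + 1) and come from limma, fitted over all genes that reached an FPKM of 1 in at least 3 of the mice fitted. A gene was called when its Benjamini-Hochberg adjusted p-value was below 0.05. The FPKM values of a mouse summed to between 510933 and 748290, and Scgb1a1, the club cell secretoglobin, made up 1.20% to 30.2% of that sum, so it scales the other genes. Mice 1 and 2 (both C3HM SAL RA), 19 (C57BM SAL HYP) and 33 (C3HF SAL HYP) lay farthest from their group mates over all genes. Calls or values among the 10 genes that change without these 4 mice are named with the results below. Leaving them out keeps mouse 3 alone in C3HM SAL RA. Where a comparison uses that group, only the effect size without the 4 mice is given. The table lists X- and Y-linked and mitochondrial genes at 0 throughout, so the labelled sex could not be checked. The markers of alveolar type 2, club, alveolar type 1 and endothelial cells were present in every group. In bulk samples, fewer cells of a type and less RNA per cell cannot be told apart.

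All 10 are protein coding genes of GRCm38 (mm10) in GENCODE M21, and they lie on 9 chromosomes. Hspa5 spans chr2:34771970-34777547, Hsp90b1 chr10:86690209-86705509, Hyou1 chr9:44379490-44392369, Dnajb9 chr12:44205559-44210326 and Sdf2l1 chr16:17130138-17132383. Pdia4 spans chr6:47796141-47813430, Creld2 chr15:88819646-88826683, Manf chr9:106838312-106891979, Herpud1 chr8:94386438-94395377 and Xbp1 chr11:5520659-5525893. For Hsp90b1, 12.5% of the 30-base sequences of its transcripts also occurred in another gene, for Dnajb9 11.1% and for Manf 7.30%, so the FPKM of these 3 could include reads of near copies or overlapping genes. The other 7 shared at most 1.55%.

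Promoter windows of 300 bases, from 250 bases before to 50 bases after the start, were found for 8 of the 10 genes in the RefSeq set for GRCm38.p6. ATF6 with its partner NF-Y is known to act on the ER stress response element (ERSE), which is CCAAT, any 9 bases, then CCACG, and on the related ERSE-II, which is ATTGG, any 1 base, then CCACG. The stretches that hold these letters on either strand are shown because, of the genes that share them, some fell, 1 rose and 1 did not pass the test in saline mice. Each stretch is written 5′ to 3′ on the strand of its gene, and the capitals mark the parts of the element; an element on the other strand reads as CGTGG followed by ATTGG.
Hspa5, element at −65 bases from the start, window chr2:34771840-34772139, plus strand: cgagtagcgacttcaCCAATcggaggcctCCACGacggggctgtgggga
Hsp90b1, elements at −212 and −107, window chr10:86705395-86705694, minus strand: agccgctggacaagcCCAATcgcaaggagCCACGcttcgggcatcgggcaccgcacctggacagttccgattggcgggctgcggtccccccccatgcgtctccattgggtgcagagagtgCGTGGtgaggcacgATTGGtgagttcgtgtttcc
Creld2, element at −126, window chr15:88819396-88819695, plus strand: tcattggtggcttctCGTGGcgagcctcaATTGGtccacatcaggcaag
Herpud1, element at −52, window chr8:94386179-94386478, plus strand: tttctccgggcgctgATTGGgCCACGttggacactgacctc
The ERSE stood in the windows of Hspa5, Hsp90b1 (2 copies) and Creld2, and in 39 of all 32851 windows (0.119%). The ERSE-II stood in the window of Herpud1 and in 12 windows in all (0.0365%). The core of the XBP1 element, TGACGTGG, held by 0.676% of all windows, and the C/EBP-ATF letters TGATGCAAT, held by 0.192%, stood in no window of these genes. Of the single parts, CCACG stood in 7 of the 8 windows and in 32.8% of all, and CCAAT in 7 and in 37.4%; the Xbp1 window had neither. These parts overlap the full elements. A match is a description of these letters and not of binding.

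The first comparison asked what 96 hours of hyperoxia changed in the lungs of the 24 saline mice. Of these genes, 6 passed the test, in both directions. The chaperone Hsp90b1 and the folding proteins Pdia4, Creld2 and Sdf2l1 fell, while Herpud1, of the degradation machinery, and the transcription factor Xbp1 rose. Hspa5, the central chaperone of the response, and Hyou1, Dnajb9 and Manf did not pass. The share of all genes tested that were called was 60.1% (31.8% higher, 28.3% lower), against 6 of these 10, and the median log2 difference of the 10 was −0.14 against 0.01 for all 16321 genes tested.

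**Figure D1:**
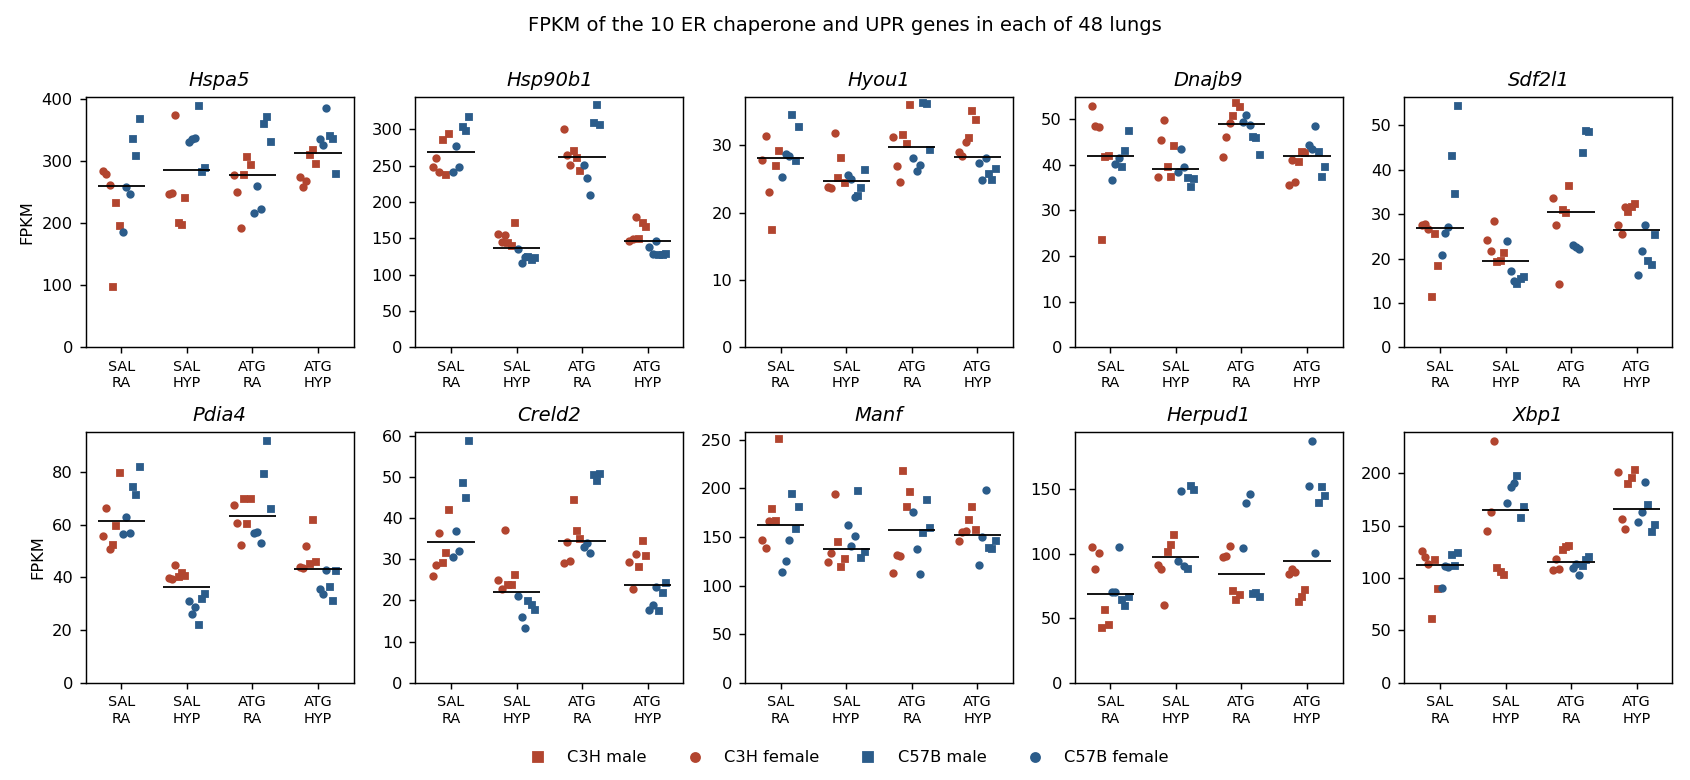
FPKM of each of the 10 genes (vertical axes, linear, from 0) in the 48 mice, by injection and air on the horizontal axis. Each point is 1 mouse, colour gives the strain, squares are males and circles females, and the line is the median of 12 mice; Hsp90b1 and Pdia4 in saline mice, and Hsp90b1 and Xbp1 in ATG mice, are separated between room air and hyperoxia without overlap.

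Among the chaperones, Hsp90b1, the ER form of HSP90 (also known as GRP94), changed most. In SAL RA mice its lowest, median and highest levels were 237, 269 and 317 FPKM, and in SAL HYP mice they were 116, 137 and 171. Every hyperoxia mouse lay below every room air mouse. The mean fell from 271 ± 28.2 to 138 ± 17.1 FPKM (SD, n = 12 each), a log2 difference of −0.97 (SE 0.05, adjusted p = 5.28e-12 in limma). Groups of 12 without overlap were seen for 7.74% of all genes tested, 2.13% in the lower direction.

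Hspa5, which encodes BiP (GRP78), the HSP70 of the ER and the protein that holds the sensors inactive, had a level like that of Hsp90b1 in room air. The SAL RA mice ran from 97.7 through a median of 259 to 368 FPKM, and the SAL HYP mice from 197 through 285 to 389. The ranges overlapped, and the log2 difference of 0.22 (SE 0.12, 95% interval −0.02 to 0.46) did not pass (adjusted p = 0.111). It passed without mouse 2, at 0.28 (adjusted p = 0.0288), and stood at 0.13 (adjusted p = 0.208) without mouse 1, the lowest room air mouse. Both encode abundant chaperones of the same compartment, so their ratio within a mouse, chosen after the values were seen, is given without a test. Hsp90b1 stood at 0.863 to 2.92 times the FPKM of Hspa5 in SAL RA mice and at 0.318 to 0.716 times in SAL HYP mice, without overlap.

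Hyou1 (GRP170), which exchanges the nucleotide of BiP, had means of 27.8 FPKM in room air and 25.2 in hyperoxia, with a log2 difference of −0.12 (adjusted p = 0.208). Without the 4 mice that lay apart it was −0.21, with mouse 3 alone left of C3HM SAL RA. Dnajb9 (ERdj4), a J-domain cochaperone of BiP, had means of 42.1 and 40.3 FPKM (log2 difference −0.04, adjusted p = 0.67). Sdf2l1, a partner of the J-domain cochaperones, went from 11.4, 26.9 and 54.3 FPKM (lowest, median and highest of SAL RA mice) to 14.4, 19.4 and 28.4 in SAL HYP mice. The groups overlapped, and the widest spread was in room air. Its mean fell from 28.6 ± 11.3 to 19.7 ± 4.39 FPKM, a log2 difference of −0.45 (SE 0.11, adjusted p = 0.00119).

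The disulfide isomerase Pdia4 (ERp72) behaved like Hsp90b1. Its lowest, median and highest levels were 50.7, 61.2 and 82.0 FPKM in SAL RA mice and 21.9, 36.5 and 44.6 in SAL HYP mice, without overlap. The mean fell from 64.0 ± 10.6 to 34.9 ± 7.07 FPKM, a log2 difference of −0.87 (SE 0.08, adjusted p = 9.66e-09). Creld2, a disulfide-linked ER protein with EGF-like domains, went from 26.0, 34.1 and 58.6 to 13.4, 21.9 and 37.0 FPKM. Its groups overlapped, and its mean fell from 37.0 ± 9.68 to 22.1 ± 6.05 FPKM (log2 difference −0.72, SE 0.09, adjusted p = 1.21e-06). Manf, a secreted protein that is released under ER stress, had means of 164 and 147 FPKM (log2 difference −0.15, adjusted p = 0.167). Without the 4 mice the difference was −0.34, and the C3HM SAL RA group was then mouse 3 alone, high for Manf at 251 FPKM.

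The genes that rose serve other tasks. Herpud1 (HERP), a membrane adaptor of ER-associated degradation, went from 42.2, 68.7 and 105 FPKM in SAL RA mice to 60.5, 97.9 and 153 in SAL HYP mice. The groups overlapped, and the mean rose from 72.9 ± 22.1 to 107 ± 29.1 FPKM, a log2 difference of 0.56 (SE 0.11, adjusted p = 0.000181). Xbp1, the transcription factor whose RNA is spliced by IRE1, went from 60.5, 113 and 126 to 103, 165 and 231 FPKM. Its groups overlapped too, and the mean rose from 108 ± 19.0 to 161 ± 39.6 FPKM (log2 difference 0.55, SE 0.09, adjusted p = 2.98e-05). FPKM per gene do not separate spliced from unspliced Xbp1, so IRE1 activity was not measured.

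Markers of other cell types moved with these differences. The summed FPKM of 3 club cell markers ran from 69658 to 230687 in SAL RA mice and from 6935 to 42120 in SAL HYP mice, and 3 of 3 were called lower. For alveolar type 2 cells the sums were 23760 to 45329 and 5316 to 20092, with 3 of 4 markers lower and 1 higher. For plasma cells they were 323 to 2212 and 190 to 1336, with 3 of 5 lower, and for neutrophils 125 to 709 and 129 to 5545, with 4 of 4 higher. The heart muscle markers, whose sums were 23.5 to 1006 and 10.4 to 71.0, were all 4 lower. For alveolar type 1 cells the sums were 2546 to 5619 and 1152 to 3739, with 3 of 4 markers lower. The sums of monocyte and recruited macrophage markers were 83.1 to 244 and 163 to 1025, with 2 of 4 called higher, and those of alveolar macrophage markers 114 to 583 and 234 to 1732, with 2 of 4 higher and 2 lower. Of 4 fibroblast markers, 1 was called higher (sums of 242 to 445 and 294 to 527.5), and of 4 endothelial markers, 1 higher and 1 lower (810 to 1341 and 665 to 1560). No marker was at 0 in all mice of a group, and the part of these shifts in the levels of the ER genes was not tested.

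The same comparison in the 24 ATG mice used none of the mice above. Of the 10 genes, 8 were called, against 61.8% of all genes tested (35.8% higher, 26.0% lower), and the median of the 10 was −0.14 against 0.06 for all genes. Each of the 6 genes called in saline mice was called in the same direction. The share of all genes that were called alike in both sets was not counted, so this is a description.

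**Figure D2:**
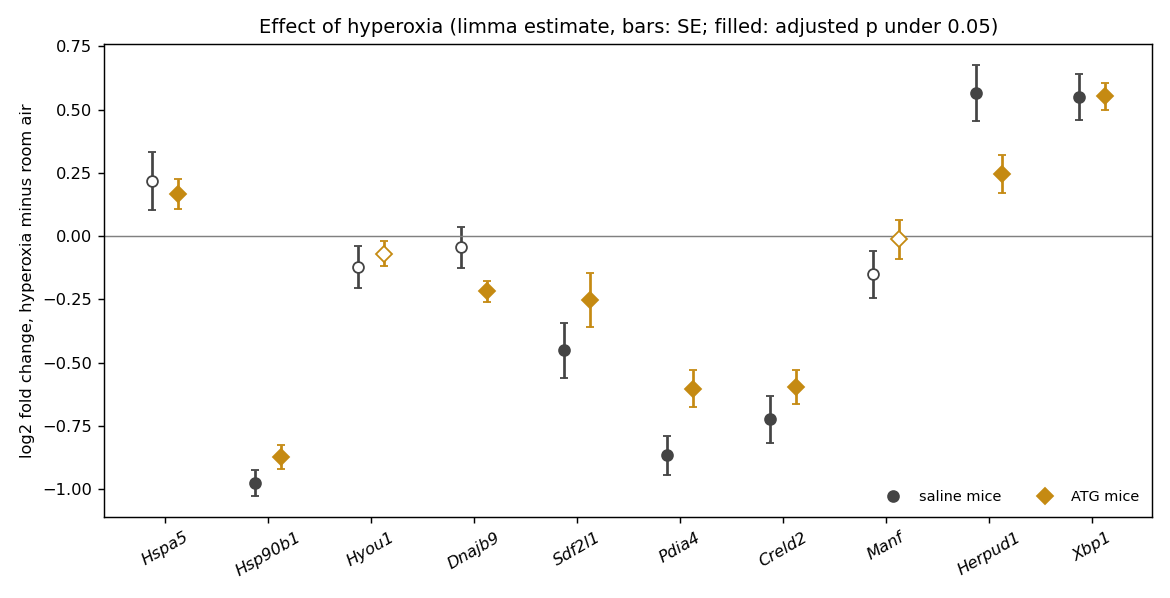
Log2 difference between hyperoxia and room air (vertical axis, log2(FPKM + 1) scale) of each gene (horizontal axis), with 1 SE on each side, in 24 saline mice (circles) and 24 ATG mice (diamonds). Filled points have an adjusted p below 0.05; Hsp90b1 lies lowest in both sets, at −0.97 and −0.87, and Xbp1 at 0.55 in both.

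In ATG mice Hsp90b1 went from 209, 262 and 334 FPKM (lowest, median and highest in room air) to 127, 147 and 179 in hyperoxia, without overlap (log2 difference −0.87, SE 0.05, adjusted p = 3.96e-12). Xbp1 went from 103, 115 and 131 to 144, 166 and 203 FPKM, also without overlap (0.55, SE 0.05, adjusted p = 1.22e-08). Groups without overlap made up 12.9% of all genes here, 8.82% higher and 4.05% lower. In the saline mice the groups of Xbp1 overlapped, and in the ATG mice it was those of Pdia4 that did.

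Pdia4 fell from 65.3 ± 11.4 to 42.8 ± 8.35 FPKM (log2 difference −0.60, adjusted p = 4.28e-07) and Creld2 from 38.1 ± 8.20 to 25.0 ± 5.71 (−0.59, adjusted p = 1.9e-07). Dnajb9, not called in saline mice, fell from 48.1 ± 3.78 to 41.3 ± 3.70 FPKM (−0.22, adjusted p = 0.000113). The ranges of all 3 genes overlapped between room air and hyperoxia.

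The other 3 calls were each lost under at least 1 other setting. Hspa5 rose from 279 ± 55.9 to 310 ± 37.1 FPKM (log2 difference 0.17, adjusted p = 0.0179), but not under scaling by the median ratio (0.07, adjusted p = 0.343). Herpud1 rose from 91.7 ± 28.8 to 111 ± 41.6 FPKM (0.25, adjusted p = 0.00813), but only by 0.01 under quantile normalization (adjusted p = 0.893). Sdf2l1 fell from 31.8 ± 11.0 to 25.7 ± 5.55 FPKM (−0.25, adjusted p = 0.0439), and the adjusted p reached 0.0897 with 1 mouse left out. Hyou1 (−0.07, adjusted p = 0.251) and Manf (−0.01, adjusted p = 0.9) were not called.

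Within a mouse, the ratio of Hsp90b1 to Hspa5 was 0.826 to 1.31 in ATG RA mice and 0.374 to 0.669 in ATG HYP mice. The ratio of Xbp1 to Hsp90b1 was 0.212 to 0.507 in SAL RA mice and 0.602 to 1.60 in SAL HYP mice, and 0.352 to 0.538 and 0.821 to 1.37 in ATG mice. Xbp1 rose and Hsp90b1 fell in these same mice, so the separation of their ratio follows from the levels above and is no further support. Both ratios were therefore separated by air in both sets of mice, without overlap. The ratio of Pdia4 to Hspa5 was 0.194 to 0.5365 in SAL RA mice and 0.0564 to 0.210 in SAL HYP mice, with overlap. In ATG mice it was 0.1965 to 0.274 in room air and 0.0929 to 0.1945 in hyperoxia, without overlap. None of these ratios depends on a factor that scales all genes of a mouse, and all are given without a test. The markers moved in ATG mice as well, with 3 of 3 club, 3 of 4 alveolar type 2, 3 of 4 alveolar type 1, 2 of 4 alveolar macrophage, 2 of 4 endothelial and 4 of 4 heart muscle markers called lower. Of the plasma cell markers, 2 of 5 were lower and 1 higher, and 1 alveolar type 2 marker was higher. Called higher were 3 of 4 neutrophil, 3 of 4 monocyte and recruited macrophage and 2 of 4 fibroblast markers. Their part was not tested.

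A further 5 lists of genes place these results in the pathway. Of the 6 sensors and activating proteases, 5 could be tested. Mbtps2, which is X-linked, was listed at 0 like the other X-linked genes of the table, so its level is not known. In saline mice 2 were higher and 1 lower: Atf6 rose from 8.81 ± 1.81 to 18.4 ± 4.34 FPKM (log2 difference 0.97, adjusted p = 9.76e-09) and Ern1 by 0.37, while Mbtps1, the site-1 protease that cuts ATF6, fell from 30.0 ± 5.50 to 18.8 ± 4.80 FPKM (−0.66, adjusted p = 1.08e-05). In ATG mice Atf6 (0.72) and Ern1 (0.24) were again higher, and Mbtps1 (−0.77) and Eif2ak3 (−0.24) lower.

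Of 22 other folding and redox genes of the ER, 4 rose and 11 fell in saline mice and 8 rose and 12 fell in ATG mice, with median log2 differences of −0.21 and −0.19. The isomerase Pdia3 (ERp57) fell from 220 ± 23.6 to 143 ± 11.5 FPKM in saline mice (−0.61, adjusted p = 4.93e-09), Pdia6 (P5) from 128 ± 27.3 to 79.9 ± 6.24 (−0.65, adjusted p = 2.38e-09) and the cochaperone Dnajc3 from 44.0 ± 8.03 to 28.2 ± 2.66 (−0.60, adjusted p = 6.73e-07). In ATG mice the same 3 fell by 0.53, 0.46 and 0.75 on the log2 scale, and Calr (calreticulin) by 0.48.

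The 10 genes listed for the PERK and ATF4 arm moved the other way. All 10 rose in saline mice and all 10 in ATG mice, with median log2 differences of 1.65 and 1.92. Atf4, the transcription factor of this arm, rose from 108 ± 17.0 to 345 ± 69.9 FPKM in saline mice (1.66, adjusted p = 8.77e-13) and from 101 ± 13.8 to 419 ± 79.8 in ATG mice (2.03, adjusted p = 8.47e-16). Trib3, a pseudokinase induced by ATF4, rose from 3.44 ± 0.72 to 43.5 ± 19.1 FPKM in ATG mice (3.22). Asns (asparagine synthetase) rose by 1.80 and 1.99, and Sesn2 (sestrin 2) by 1.83 and 1.93. PERK activity was not measured, and its gene Eif2ak3 was not called higher in either set of mice.

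**Figure D3:**
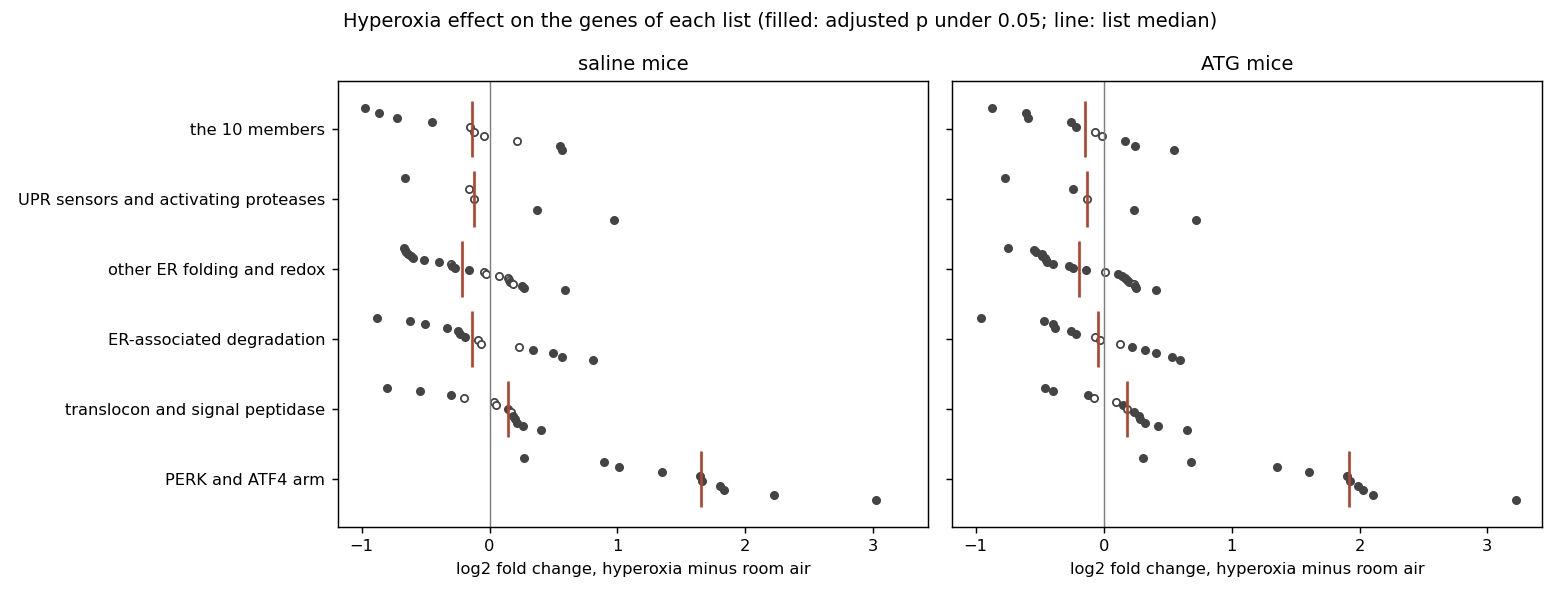
Log2 difference between hyperoxia and room air (horizontal axis) of every tested gene in the 10 described here and in 5 lists of the pathway, in saline mice (left) and ATG mice (right). Each point is 1 gene, filled where its adjusted p is below 0.05, and the red line is the median of the list; the PERK and ATF4 arm is the only list with all points right of 0, at medians of 1.65 and 1.92.

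Of 14 genes of ER-associated degradation, the pathway of Herpud1, 4 rose and 7 fell in saline mice and 5 rose and 6 fell in ATG mice. In saline mice Nploc4, a cofactor of the p97 segregase, rose by 0.81 and Ubxn4 by 0.49, while Selenok fell from 135 ± 37.1 to 85.2 ± 12.1 FPKM (−0.63). Derl3, at a level of 1.27 ± 0.69 FPKM in room air, fell to 0.20 ± 0.22. Of 13 genes of the translocon and signal peptidase, through which these proteins enter the ER, 6 rose and 3 fell in saline mice and 7 rose and 3 fell in ATG mice. Ssr3 rose by 0.40 and 0.43, and Sec62 fell by 0.54 and 0.46. These counts stand beside the 60.1% and 61.8% of all genes called.

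The next comparison asked whether hyperoxia acted alike in both strains. In saline mice the difference of the hyperoxia effect between strains (C3H minus C57B) was called for 4 of the 10 genes, against 11.5% of all genes tested (8.71% higher), and all 4 are the genes that fell: Hsp90b1, Sdf2l1, Pdia4 and Creld2. The fall was deeper in C57B lungs for each. The median difference of the 10 genes was 0.21, against 0.15 for all genes, whose own median effect was 0.10 in C3H and −0.06 in C57B mice. Within a strain, 4 of the 10 genes were called in C3H mice, against 37.8% of all genes, and 6 in C57B mice, against 55.5%. Room air and hyperoxia mice did not overlap for 2 of the 10 in C3H mice (14.3% of all genes) and for 4 in C57B mice (32.4%).

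In C3H saline mice Creld2 went from 26.0, 30.3 and 41.9 FPKM (lowest, median and highest of 6 in room air) to 22.9, 24.4 and 37.0 in hyperoxia, with overlap. In C57B mice it went from 30.5, 40.8 and 58.6 to 13.4, 18.3 and 21.0, without overlap. The log2 effects were −0.28 (adjusted p = 0.0956) and −1.17 (adjusted p = 3.18e-07), and their difference was 0.88 (SE 0.18, adjusted p = 0.00502). Without the 4 mice the C3H effect was −0.54, with mouse 3 alone left of C3HM SAL RA.

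Sdf2l1 showed the widest split. In C3H mice it went from 11.4, 26.1 and 27.8 to 19.3, 21.4 and 28.4 FPKM, a log2 effect of 0.02 (95% interval −0.30 to 0.34), and in C57B mice from 20.8, 30.8 and 54.3 to 14.4, 15.6 and 24.0, an effect of −0.92 (adjusted p = 3.69e-05). The difference was 0.94 (SE 0.22, adjusted p = 0.00855). The groups of both strains overlapped.

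Pdia4 went from 50.7, 57.6 and 79.7 to 39.2, 40.3 and 44.6 FPKM in C3H mice and from 56.6, 67.0 and 82.0 to 21.9, 29.8 and 33.8 in C57B mice. Both strains were without overlap between air groups, and the effects of −0.54 and −1.19 differed by 0.65 (SE 0.15, adjusted p = 0.0104). Hsp90b1 went from 237, 254 and 294 to 140, 150 and 171 FPKM in C3H mice and from 241, 288 and 317 to 116, 123 and 135 in C57B mice. Its effects of −0.78 and −1.17 differed by 0.39 (SE 0.10, adjusted p = 0.0184). For both genes every C57B hyperoxia mouse lay below every C3H hyperoxia mouse, while the room air ranges of the strains overlapped. The share of all genes that separate the strains in hyperoxia was not counted, so this is a description.

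**Figure D4:**
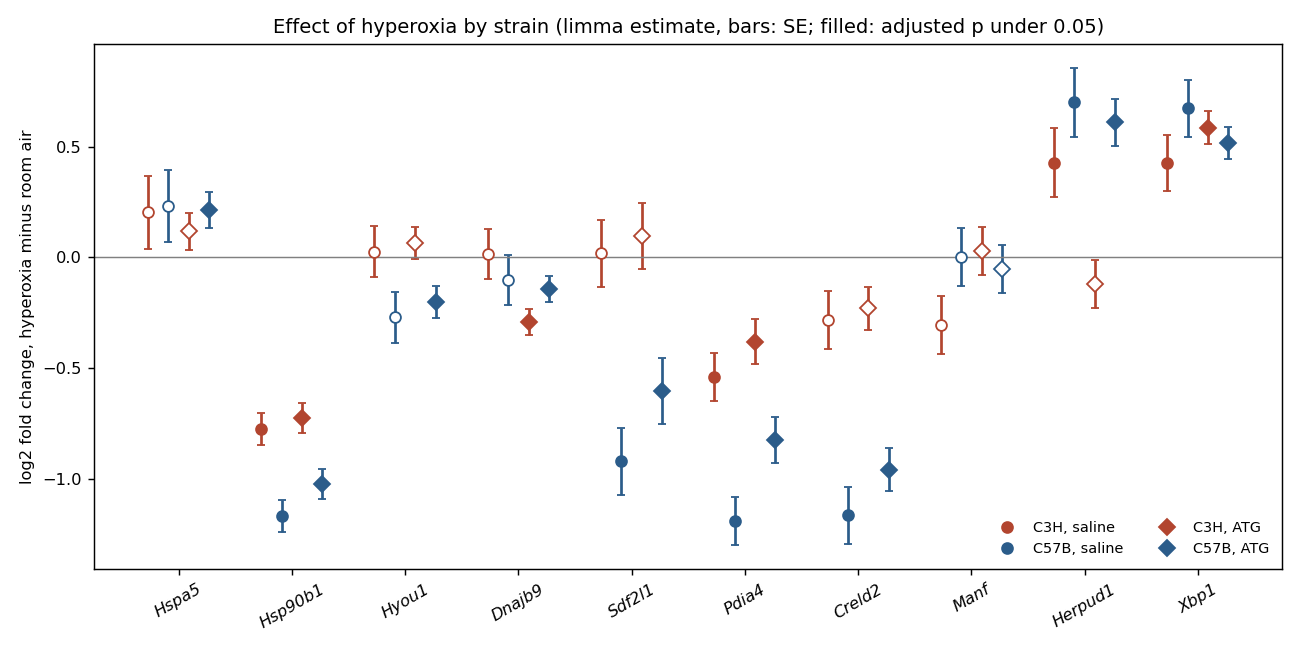
Log2 difference between hyperoxia and room air (vertical axis) of each gene (horizontal axis) with 1 SE on each side, by strain (colour), in saline (circles) and ATG mice (diamonds), filled where the adjusted p is below 0.05. Hsp90b1, Sdf2l1, Pdia4 and Creld2 lie lower in C57B than in C3H mice in both, and Herpud1 lies at −0.12 in C3H and 0.61 in C57B mice given ATG.

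None of the other 6 was called for the strain difference: Hyou1 stood at 0.30 (adjusted p = 0.247), Manf at −0.31 (adjusted p = 0.286), Herpud1 at −0.27 (adjusted p = 0.441) and Xbp1 at −0.25 (adjusted p = 0.393), with Hspa5 at −0.03 and Dnajb9 at 0.12. Under scaling by the median ratio, Sdf2l1 and Creld2 stayed called, while Hsp90b1 (0.20, adjusted p = 0.374) and Pdia4 (0.46, adjusted p = 0.0517) were lost. Without the 4 mice that lay apart Manf stood at −0.49 and Xbp1 at −0.33, with mouse 3 alone left of C3HM SAL RA.

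The 24 ATG mice, which share no mouse with these, were then fitted in the same way, a comparison chosen after the saline result was seen. Here 5 genes were called, against 13.3% of all genes (8.27% higher, 5.04% lower). Within a strain, 4 of the 10 were called in C3H mice (47.9% of all genes) and 9 in C57B mice (56.2%). The same 4 differed in the same direction, with Creld2 at 0.73 (adjusted p = 0.00151), Sdf2l1 at 0.70 (adjusted p = 0.0326), Pdia4 at 0.45 (adjusted p = 0.0482) and Hsp90b1 at 0.30 (adjusted p = 0.045). How many of all genes kept their strain difference in this way was not counted. Creld2 fell from 41.4 ± 9.50 to 20.5 ± 2.95 FPKM in C57B mice given ATG (SD, n = 6), and stood at 34.8 ± 5.57 and 29.4 ± 3.92 in C3H mice. Herpud1 differed in the other direction, at −0.73 (adjusted p = 0.00318). It rose from 99.3 ± 36.8 to 146 ± 27.8 FPKM in C57B mice (0.61) and stood at 84.2 ± 18.2 and 76.6 ± 11.1 in C3H mice (−0.12, adjusted p = 0.383).

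A few other genes of the pathway were called for the strain difference. In saline mice the folding genes Ero1lb (0.61) and Dnajc3 (0.54) and the sensor Atf6b (0.58) were called in the direction of the 4 genes, and Ppp1r15a (−0.55), of the ATF4 arm, and Ubxn4 (−0.33) in the other. In ATG mice 4 of the 10 genes of the ATF4 arm were called, all lower, with Asns at −1.21 and Trib3 at −1.10. The club cell markers moved with the strain difference: all 3 were called in saline mice, with a median of 2.06, and all 3 in ATG mice, with a median of 1.62. Their sums in SAL HYP lungs were 27212 to 42120 in C3H and 6935 to 17436 in C57B mice, against 69658 to 230687 and 97371 to 166708 in room air. Also called in saline mice were 2 of 4 endothelial markers in the same direction, and 2 of 4 alveolar macrophage markers in the same and 1 in the other. The summed alveolar macrophage markers were 234 to 603 FPKM in C3H and 717 to 1732 in C57B mice in SAL HYP, and 114 to 302 and 161.5 to 583 in SAL RA. In ATG mice all 4 neutrophil markers were called in the direction of the club cell markers, with a median of 3.10, and 2 of 4 alveolar macrophage markers in the other. The part of these shifts in the strain difference of the ER genes was not tested.

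Between the sexes, the difference of the hyperoxia effect in saline mice was called for none of the 10 genes in limma (6 of all genes, 0.0368%), with 2 of the 10 at an unadjusted p below 0.05. The largest was that of Herpud1, at 1.01 (males minus females, SE 0.22, adjusted p = 0.102). Without the 4 mice it was 1.09, and that of Manf −0.69, with mouse 3 alone left of C3HM SAL RA. In males Herpud1 rose from 55.7 ± 10.1 to 119 ± 26.6 FPKM (n = 6), with 42.2 to 66.8 in room air and 88.0 to 153 in hyperoxia, without overlap, as for 11.0% of all genes in the higher direction. In males 7 of the 10 genes were called, against 45.1% of all genes, and in females 4, against 50.3%. In females the means were 90.0 ± 16.3 and 95.7 ± 28.8 FPKM (log2 effect 0.06, 95% interval −0.27 to 0.38). In ATG mice the same difference was 0.57 (adjusted p = 0.171), with none of the 10 called in limma, 6 at an unadjusted p below 0.05, and 0.197% of all genes called.

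At baseline, in the 12 saline mice in room air, the study compared strain, sex and their interaction. None of the 10 genes differed between strains in limma, against 11.8% of all genes, with 2 at an unadjusted p below 0.05. Sdf2l1 stood at −0.55 (C3H minus C57B, adjusted p = 0.0607) and Creld2 at −0.35 (adjusted p = 0.0952). Without the 4 mice, with mouse 3 as the only C3H male left, Sdf2l1 stood at −0.52 and Manf at 0.37. In the fit of all 48 mice Sdf2l1 (adjusted p = 0.0109), Creld2 (adjusted p = 0.0329) and Hspa5 (−0.38, adjusted p = 0.0456) were called. In the ATG room air mice, which are other mice, none of the 10 was called in limma (smallest adjusted p = 0.0556), against 2816 of 15374 genes. In the 12 saline mice 4 of 4 neutrophil, 3 of 5 plasma cell and 2 of 4 alveolar type 2 markers were called lower in C3H, and 3 of 4 alveolar type 1 markers higher, and their part was not tested.

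Between males and females, Herpud1 was called, against 0.669% of all genes, and 5 of the 10 had an unadjusted p below 0.05. Males ran from 42.2 through 58.4 to 66.8 FPKM and females from 70.6 through 94.4 to 105, without overlap, as for 1.73% of all genes tested (1.35% lower). The log2 difference was −0.68 (males minus females, SE 0.12, adjusted p = 0.0321), and the exact permutation test over the 12 mice gave p = 0.00217, the smallest it can give. The direction was kept with each mouse left out in turn, but the adjusted p stayed below 0.05 only without mouse 2 or without mouse 37. Manf (0.42, adjusted p = 0.104 in limma), Hsp90b1 (0.19, adjusted p = 0.199) and Creld2 (0.38, adjusted p = 0.126) were not called, with exact permutation p = 0.00433, 0.026 and 0.0455, not adjusted for the 10 genes. Without the 4 mice, with mouse 3 as the only C3H male left, Manf stood at 0.60, Creld2 at 0.53 and Pdia4 at 0.42.

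The 12 ATG mice in room air are other mice, and this comparison too was added after the first was seen. Herpud1 was again lower in males, at 64.4 to 71.0 FPKM against 97.4 to 147 in females, without overlap (−0.73, SE 0.08, adjusted p = 0.00104), as for 1.33% of all genes. Here 4 of the 10 genes were called, against 1.63% of all genes. The other 3 were higher in males: Creld2 at 34.8 to 50.7 against 29.0 to 34.0 FPKM, without overlap (0.45, adjusted p = 0.0137), Hspa5 at 323 ± 36.8 against 236 ± 32.0 (0.45, adjusted p = 0.0365) and Sdf2l1 at 39.8 ± 8.45 against 23.9 ± 6.39 (0.73, adjusted p = 0.0468). Among the cell type markers, Cxcr2 of neutrophils and Ccr2 of monocytes were also called higher in these males. The summed FPKM of both marker lists overlapped between the sexes. For neutrophils it was 53.0 to 3348 in males and 66.7 to 251 in females. For monocytes and recruited macrophages it was 116 to 227 in males and 93.2 to 276 in females. The part of these markers was not tested. In saline mice Hspa5 stood at −0.09 (adjusted p = 0.792) and Sdf2l1 at 0.09 (adjusted p = 0.766).

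Single groups of 3 show where these differences lie. The share of all genes that separate was not counted for groups of 3, so the separations given below are descriptions. For Herpud1, the C3HM SAL RA mice had 42.2, 56.8 and 44.7 FPKM and the C3HF SAL RA mice 105, 88.1 and 101. In ATG mice in room air the C3H males had 71.0, 64.4 and 68.3 FPKM, the C3H females 97.4, 98.0 and 106, the C57B males 68.9, 69.6 and 66.4 and the C57B females 105, 139 and 147. In saline C57B mice in room air the males had 63.9, 59.9 and 66.8 FPKM and the females 70.6, 70.6 and 105. In each of these 4 pairs of groups every male lay below every female.

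Under hyperoxia this order was lost in C57B mice given ATG and was turned round in C3H saline mice. The C57BM ATG HYP mice had 140, 152 and 145 FPKM of Herpud1 and the C57BF ATG HYP mice 152, 187 and 101, with overlap. The C3HM ATG HYP mice had 62.4, 66.3 and 71.9 and the C3HF ATG HYP mice 84.5, 88.5 and 85.7, still without overlap. The C3HM SAL HYP mice, at 101, 107 and 114 FPKM, lay above the C3HF SAL HYP mice, at 91.4, 88.6 and 60.5.

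**Figure D5:**
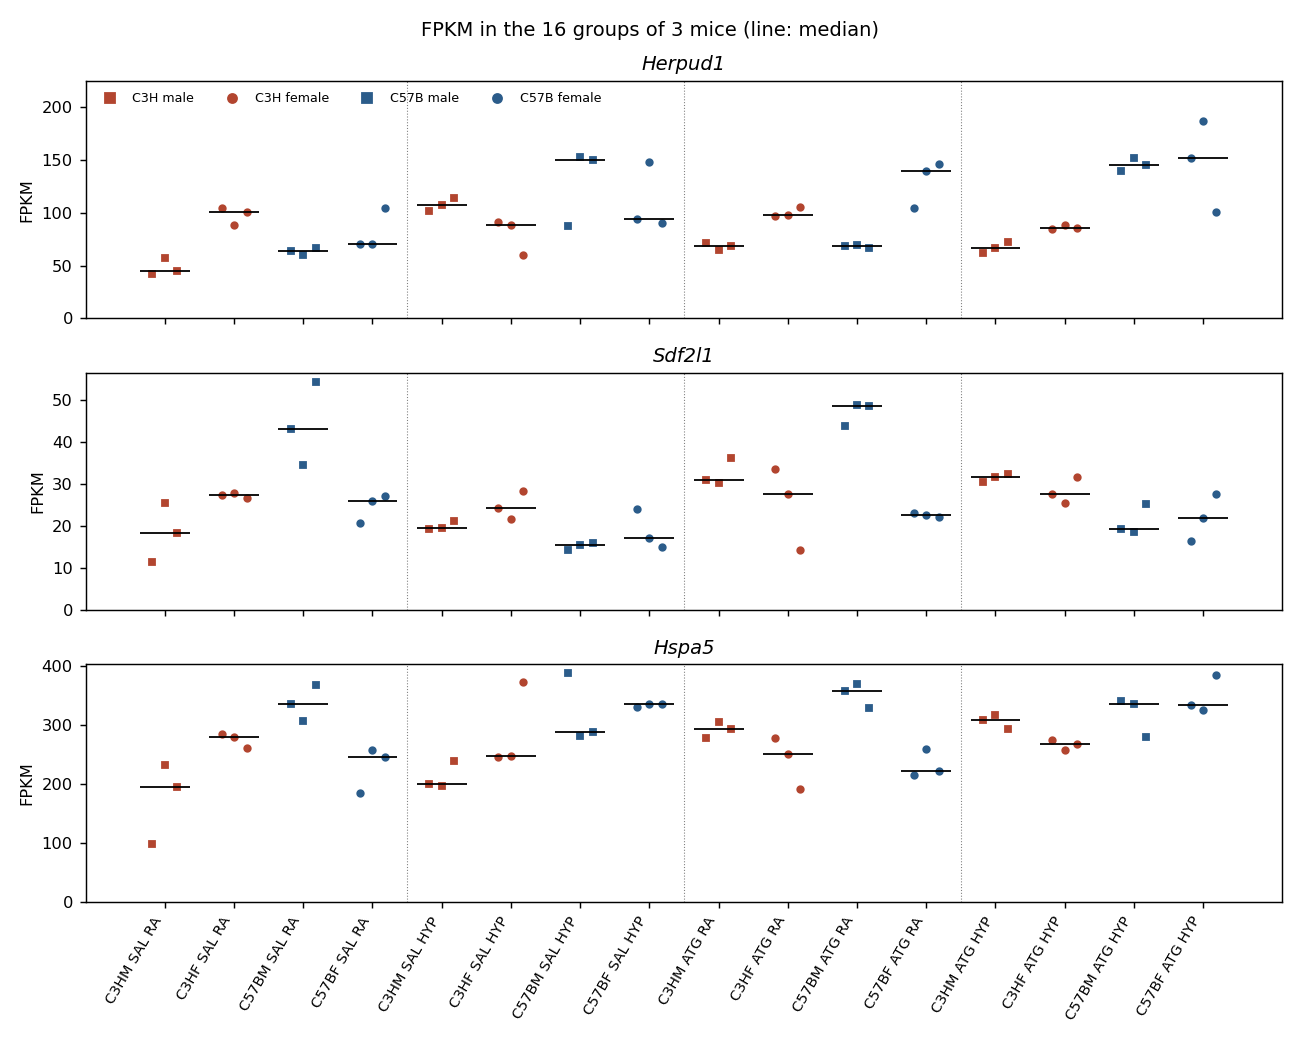
FPKM (vertical axes, linear, from 0) of Herpud1, Sdf2l1 and Hspa5 in the 16 groups of 3 mice, each point 1 mouse and each line the median. C57B males in room air hold the highest Sdf2l1 (34.5 to 54.3 FPKM in saline, 43.9 to 48.8 in ATG mice).

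C57B males stood out for Sdf2l1 and Hspa5. Sdf2l1 was 43.2, 34.5 and 54.3 FPKM in C57BM SAL RA mice and 43.9, 48.8 and 48.6 in C57BM ATG RA mice. In hyperoxia it was 14.4, 15.4 and 15.9 and, with ATG, 19.4, 18.5 and 25.2. Within C57B males every hyperoxia mouse thus lay below every room air mouse in both sets.

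Hspa5 was 335, 307 and 368 FPKM in C57BM SAL RA mice and 97.7, 233 and 196 in C3HM SAL RA mice. In C57B females it went from 185, 257 and 247 to 330, 335 and 337 in saline mice and from 215.5, 259 and 223 to 335, 325 and 385 in ATG mice, without overlap in either. The interaction of strain and sex at baseline was called for none of the 15546 genes tested in limma, with 2538 at an unadjusted p below 0.05. Hspa5 stood at −1.30 (adjusted p = 0.186) and Sdf2l1 at −1.42 (adjusted p = 0.149). Without the 4 mice these values were −1.05 and −1.35, with mouse 3 as the only C3H male left at baseline.

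The last comparisons were those of ATG with saline. They share the saline and ATG mice of the hyperoxia comparisons, so each is given by its own values. In room air none of the 10 genes was called in limma, against 0.0185% of all genes, with 2 at an unadjusted p below 0.05. Herpud1 stood at 0.33 (72.9 ± 22.1 in SAL, 91.7 ± 28.8 in ATG, adjusted p = 0.228) and Dnajb9 at 0.21 (42.1 ± 7.46 and 48.1 ± 3.78, adjusted p = 0.665). For Hsp90b1 the 95% interval of the difference was −0.12 to 0.09.

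Under hyperoxia 3 genes were called, all higher in ATG mice, against 5.47% of all genes (3.89% higher). Sdf2l1 ran from 14.4 through 19.4 to 28.4 FPKM in SAL HYP mice and from 16.4 through 26.5 to 32.3 in ATG HYP mice (log2 difference 0.37, adjusted p = 0.0197). Pdia4 ran from 21.9 through 36.5 to 44.6 and from 31.2 through 43.2 to 61.8 FPKM (0.29, adjusted p = 0.0341). Hyou1 ran from 22.4 through 24.7 to 31.8 and from 24.8 through 28.3 to 35.1 FPKM (0.18, adjusted p = 0.0496).

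All 3 overlapped between the groups, and these calls were fragile: only Sdf2l1 stayed called under scaling by the median ratio (adjusted p = 0.0497) and under quantile normalization. A fit without the 4 mice called 5 genes, with Hspa5 (0.21, adjusted p = 0.0176) and Xbp1 (0.20, adjusted p = 0.0433) added. The other 7 had log2 differences between 0.01 (Herpud1) and 0.18 (Creld2). Of the pathway lists, the folding genes Sdf2 (0.24) and Pdia6 (0.19), the degradation genes Derl2 (0.38) and Selenos (0.20), the translocon and signal peptidase genes Sec11c (0.29) and Sec61g (0.35), and Atf4 (0.28) were called higher, and none lower. Of the alveolar macrophage markers, 3 of 4 were called lower in ATG HYP mice, as were 2 of 4 endothelial markers, Pecam1 (−0.32, adjusted p = 0.01) and Tek (−0.41, adjusted p = 0.0187), and Spp1 (−0.92, adjusted p = 0.0422) of the 4 monocyte and recruited macrophage markers, and their part was not tested. The difference of the hyperoxia effect between ATG and saline mice was called for none of the 10 genes in limma, against 2.77% of all genes, with 2 at an unadjusted p below 0.05: Pdia4 at 0.26 (adjusted p = 0.168) and Herpud1 at −0.32 (adjusted p = 0.194). Without the 4 mice the difference for Herpud1 was −0.45, with mouse 3 alone left of C3HM SAL RA.

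Over the 48 mice, the 45 pairs of these genes had a median Pearson r of 0.28, and of 0.32 when each mouse's deviation from its group mean was used. The 6 pairs among Hsp90b1, Pdia4, Creld2 and Sdf2l1 had r of 0.55 to 0.92, and of 0.25 to 0.50 for the deviations. The genes outside the lists whose levels most resembled the mean of the 10 over the 48 mice were Ahsa1 (r = 0.76), Ddost (0.75), Sar1a (0.72), Tram1 (0.70) and H3f3a (0.70). Mice share conditions and the scaling of their library, so these values are descriptions.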

How the data were processed

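Whole lung RNA of 48 mice was sequenced by the authors from polyadenylated RNA. Per the labels and methods, reads were mapped to mm10 with GSNAP, handled with SAMtools and converted by the authors with Cufflinks to FPKM, and 1 deposited table holds an FPKM value per gene and mouse. Labels and methods name different library kits and instruments. The annotation and the handling of reads with several matches are not given in the sources used here. Library depth is unknown, so errors are spreads over mice and not counting errors.

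Groups were taken from the labels. Log2(FPKM + 1) was fitted with limma 3.58.1 (R 4.3.3; group means, eBayes with trend) keeping genes that reached 1 FPKM in 3 or more of the mice fitted, with Benjamini-Hochberg adjustment over all genes tested and a threshold of 0.05. The scripts were tested on simulated data. Single values were compared with two-sided exact or 100000-resample permutation tests. The genes described and the lists were chosen with earlier results of these data known. From each list, at most the 4 genes with the smallest adjusted p were named, besides genes a limit turns on. Likeness was measured over 48 mice against 16994 genes. The fits were repeated with a pseudocount of 0.1, a filter of 0.1 FPKM or none, quantile normalization, median ratio scaling, rescaling without Scgb1a1, eBayes without trend, all 48 mice, single strains or sexes, each mouse left out, and motifs with 1 mismatch.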

Additional observations from a re-analysis of the deposited data

Results flagged for a closer look

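The hyperoxia effect in saline mice differed between strains (C3H minus C57B, log2 scale) for Hsp90b1 by 0.39, for Sdf2l1 by 0.94, for Pdia4 by 0.65 and for Creld2 by 0.88, each tested as an interaction in limma.

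In 80 groups of 6 mice (each gene in each strain, injection and air), 7 had a highest mouse whose gap to the next passed Dixon's critical ratio, where chance gives about 1 in 20 groups. Mouse 33 (C3HF SAL HYP) held 3 of them, with Hspa5 at 373.9 FPKM against 197 to 248 in the other mice of its group, Creld2 at 37.0 against 22.9 to 26.1 and Manf at 193.9 against 120 to 145. Manf was also high in mouse 3 (C3HM SAL RA), at 251 FPKM against 138 to 178.5, and in mouse 48 (C57BF ATG HYP), at 198 against 121 to 150. Sdf2l1 was 24.0 FPKM in mouse 43 (C57BF SAL HYP) against 14.4 to 17.1, and Herpud1 105 in mouse 39 (C57BF SAL RA) against 59.9 to 70.6.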

How the results depend on the processing

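No paired analysis was possible because each mouse has a number of its own. All FPKM come from 1 processing, the depth is unknown, and calls with small effects move most.

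Counts of all genes called and of the 10 genes called that moved by over 1.5 times are given by comparison. Hyperoxia in saline mice: 5164 and 3 within C3H, 6403 genes within males. Hyperoxia in ATG mice: 4 of the 10 within C3H. ATG in room air: 5 genes with no filter, 0 within C3H, 7 within C57B, 1 within males and 7 within females. The fit without mice 1, 2, 19 and 33 was a setting chosen after seeing the data. Its counts are given only for ATG in hyperoxia. In comparisons that use saline room air mice it leaves mouse 3 alone in its group. ATG in hyperoxia: of the 10, 1 with no filter, 1 with quantile normalization, 1 with median ratio scaling and 5 without the 4 mice; 522 and 1 rescaled without Scgb1a1, 280 and 1 within C3H, 1 and 0 within C57B, 0 and 0 within males, 9 and 0 within females. Difference of the hyperoxia effect between ATG and saline mice: 313 genes with no filter, 102 within C3H, 0 within C57B, 4 within males, 2 within females, and 993 and 1 without the 4 mice. Difference between strains: 2 of the 10 with median ratio scaling, 2994 genes in the fit of all 48 mice, 293 and 1 within males, 206 and 0 within females, 3077 genes without the 4 mice. Difference between sexes: 2 genes with median ratio scaling, 10 rescaled without Scgb1a1, 306 and 1 with all 48 mice, 1 within C3H, 3 within C57B, 2227 and 2 without the 4 mice, 32 in the 24 ATG mice. Strain at baseline: 2982 and 3 with all 48 mice, 782 and 1 within males, 779 within females, 3289 and 2 without the 4 mice, 2816 in the 12 ATG room air mice. Sex at baseline: 40 and 0 with no filter, 60 with an FPKM of at least 0.1, 320 rescaled without Scgb1a1, 1915 and 3 with all 48 mice, 18 and 0 within C3H, 35 and 0 within C57B, 1834 and 4 without the 4 mice, 250 and 4 in the 12 ATG room air mice. Interaction of strain and sex at baseline: 5 with a pseudocount of 0.1, 2 with no filter, 2 with an FPKM of at least 0.1, 2 without trend, 748 and 3 with all 48 mice, 1661 and 2 without the 4 mice. The cause was not tested.

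Of the values of the 10 genes, 133 of 1650 under other settings and 94 of 3240 with a mouse left out had the other sign. In 10 of these cases the value was called in the reported or in the other setting. Sdf2l1 under hyperoxia in saline mice was 0.019 within C3H, and 0.18 within C3H males. Herpud1 in C3H saline mice was −0.31 within females. In ATG mice Hspa5 was −0.081 with quantile normalization and −0.041 within males, Sdf2l1 0.099 within C3H and 0.081 within females, and Herpud1 −0.12 within C3H and −0.037 within females. Hspa5 between the sexes at baseline was 0.45 in the 12 ATG room air mice.

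With 1 mouse left out, all genes called and the 10 genes called ranged from 9479 to 10098 and 6 to 7 for hyperoxia in saline mice, 9748 to 10024 and 7 to 8 in ATG mice, 3 to 32 and 0 to 1 for ATG in room air, 443 to 1096 and 1 to 3 for ATG in hyperoxia, 243 to 1093 and 0 to 0 for the difference between ATG and saline mice, 1400 to 3242 and 4 to 4 for that between strains, 2 to 1270 and 0 to 2 for that between sexes, 1306 to 4021 and 0 to 2 for strain, 20 to 3640 and 0 to 4 for sex, and 0 to 2741 and 0 to 4 for the interaction. Mouse 2 gave the highest count for strain (4021), sex (3640), the interaction (2741), the strain difference (3242), the sex difference (1270) and ATG in room air (32), and the sex difference was 1051 without mouse 19. ATG in hyperoxia was lowest without mouse 8 or mouse 24 (443 each). Allowing 1 mismatch, the ERSE stood in 5 of the 8 windows, the ERSE-II in 4, the XBP1 core in 4 and the C/EBP-ATF letters in 1.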
